A study of Mus musculus with 3 samples.

Results

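The cells described here were Dazl-positive cells with RNA of Sycp3, Hormad1 and Tex101. The study counts Sycp3 and Hormad1 among early and Tex101 among late spermatocyte genes. The cells were selected on their own UMI counts (a UMI, unique molecular identifier, marks 1 captured RNA molecule) from single-cell RNA sequencing of dissociated mouse testes. They were sought as leptotene and zygotene spermatocytes, a label that the low X-linked share and the Piwil1 level of most of them went against. A member was a barcode with at least 2000 UMIs, more than 500 genes and under 10% mitochondrial UMIs in which Sycp3, Hormad1 and Tex101 together gave at least 0.2% of UMIs and Dazl at least 0.03%. The sum of Dmrt1, Uchl1, Crabp1, Stra8, Kit and Zbtb16, genes of spermatogonia and of cells entering meiosis, had to be under 0.03%, and that of Prm1, Prm2, Tnp1 and Tnp2, the protamine and transition protein genes of elongating spermatids, under 1%. The rule took 317 of the 9484 barcodes kept: 104 cells of 4583 for WT, 130 cells of 3576 for KO and 83 cells of 1325 for KI. The 3 libraries came from the testes of C57BL/6 males, labelled as 8 weeks old, that were wild type (WT), lacked GRTH/DDX25, an RNA helicase of male germ cells (GRTH-KO, here KO), or carried the human GRTH gene with an amino acid change that abolishes the phosphorylated form of the protein (GRTH-KI, here KI). For age the study's methods give a range that starts at 8 weeks, so equal age in the 3 groups is not certain. The labels describe 1 mouse and the study's methods testes pooled from 2 mice per group. In either case each genotype had 1 library, so genotype, animal and library cannot be told apart, no test was possible, and every interval below is a 95% interval of counting error only.

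In the leptotene and zygotene stages of meiosis, homologous chromosomes are cut by programmed double-strand breaks, RecA-like recombinases carry the broken ends into the homologous chromosome, and the synaptonemal complex begins to join the paired axes. In male cells the X and Y chromosomes have little sequence to pair with. They are transcriptionally silenced at the start of pachytene, and several autosomal genes copied from X-linked genes are then transcribed in their place. DDX25 itself is best known from later cells, round spermatids above all, where it takes part in the export, storage and translation of mRNA.

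Members made up 2.27% of the kept barcodes in WT (1.86 to 2.74), 3.64% in KO (3.05 to 4.30) and 6.26% in KI (5.02 to 7.71). As a share of the cells in 3 gates (members, a spermatogonia gate and a pachytene gate), they were 27.6%, 21.3% and 31.0% in WT, KO and KI, so the order of the libraries depended on the denominator. The spermatogonia gate held 20, 27 and 20 cells in WT, KO and KI in which the 6 excluded genes gave at least 0.1% of UMIs. The pachytene gate held 253, 453 and 165 cells with at least 0.03% Piwil1 and less than 0.2% of the 3 selecting genes. Member UMIs summed to 1394181, 1731022 and 2006780 in WT, KO and KI, and the median member had 9602, 9139.5 and 17094 UMIs. Levels are UMIs of the summed members scaled to a library total of 1e+06 (CPM), and differences are log2 ratios of CPM + 1. A list of 12 other genes of spermatogonia was not highest in the spermatogonia gate. It summed to 537, 505 and 556 CPM there and to 652, 725 and 673 CPM in the pachytene gate. In members it summed to 284, 306 and 289 CPM.

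The values that chose the members lay close to their limits in some cells. The lowest sum of Sycp3, Hormad1 and Tex101 inside the rule was 0.210%, 0.209% and 0.214% in WT, KO and KI, and the highest among cells that failed on this sum alone was 0.195%, 0.190% and 0.180%. For Dazl the nearest values were 0.0322%, 0.0310% and 0.0303% inside and 0.0299%, 0.0299% and 0.0296% outside. For the 6 excluded genes they were 0.0214%, 0.0297% and 0.0290% inside and 0.0303%, 0.0416% and 0.0382% outside. For the protamine and transition protein sum they were 0.991%, 0.864% and 0.628% in WT, KO and KI inside, and 1.20% in WT and 1.42% in KO outside, with no KI cell failing on this sum alone. In 4 WT, 2 KO and 1 KI members the Dazl value rested on 1 UMI.

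The share of nuclear UMIs that came from the X chromosome, which the rule did not use, was 0.551% in WT members (0.539 to 0.564), 0.762% in KO (0.748 to 0.775) and 0.712% in KI (0.700 to 0.724). It was 2.30%, 2.20% and 2.28% in the spermatogonia gate and 0.0591%, 0.0722% and 0.0290% in the pachytene gate, so members stood between them in every library. Most single members lay at either end of the range, and a smaller number lay from 0.3 to 1%, where these averages are. In WT 45 members had under 0.3% X-linked UMIs, 22 had 0.3 to 1%, 5 had 1 to 1.5% and 32 had 1.5% or more. The corresponding numbers were 49, 24, 10 and 47 in KO, and 38, 14, 5 and 26 in KI. Members with an X-linked share of at least 1%, a limit set after the distribution was seen, are called X-high here and the others X-low. X-low members, 67 in WT, 73 in KO and 52 in KI, were the larger number in each library. X-high and X-low are 2 ranges of a measured share and not cell types, and 4 X-high and 4 X-low WT members, 7 and 5 KO members and 3 and 0 KI members lay within 0.25 percentage points of the limit.

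**Figure D1:**
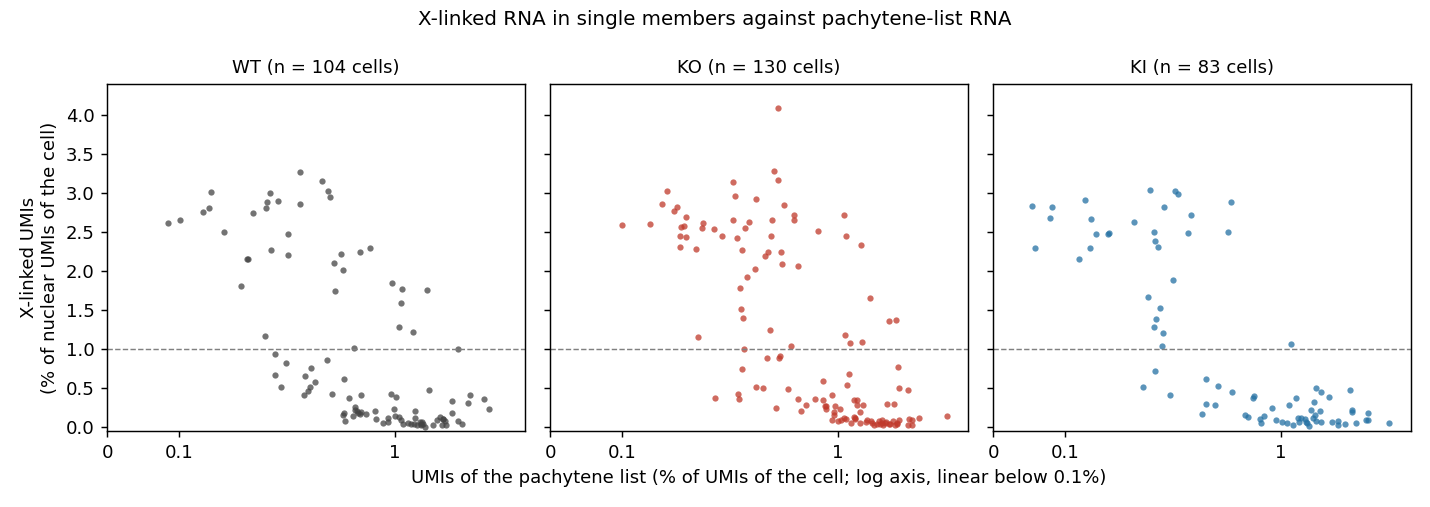
Each point is 1 member: the horizontal axis gives the share of its UMIs from 18 genes of pachytene and later spermatocytes (percent, log axis that is linear below 0.1%), the vertical axis the X-linked share of its nuclear UMIs (percent), with 1 panel per library and a dashed line at 1%. In each library a group of members above 2% X-linked UMIs and a group near 0% sit apart, with few members between 1 and 1.5%.

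X-high members were 35.6% of WT members (26.4 to 45.6), 43.8% of KO members (35.2 to 52.8) and 37.3% of KI members (27.0 to 48.7). These intervals count cells within 1 library each and decide nothing about genotype. X-high members had fewer UMIs, with medians of 5310, 6275 and 15936 in WT, KO and KI against 14143, 12709 and 20613 in X-low members, and contributed 18.6% of the WT member UMIs, 29.0% of the KO and 26.7% of the KI ones. Every level summed over members is therefore weighted towards X-low cells, and more so in WT than in the mutants. The marker lists of Sertoli cells and of round and elongating spermatids were also higher in X-high members in every library. The Sertoli list stood at 579, 448 and 466 CPM in X-high and 160, 116 and 196 CPM in X-low members of WT, KO and KI, the round spermatid list at 274, 669 and 300 against 82.8, 186 and 89.1 CPM, and the elongating spermatid list at 2623, 1482 and 1628 against 1210, 781 and 403 CPM. Their part in the differences between the 2 ranges was not tested. Piwil1, a piRNA-binding Argonaute protein of pachytene cells, stood at 15.4, 33.9 and 69.0 CPM in X-high members of WT, KO and KI and at 584, 596 and 650 CPM in X-low members, beside 700, 590 and 665 CPM in the pachytene gate, whose level its own minimum of Piwil1 fixes in part. Dmc1, the meiotic recombinase, showed the reverse order, at 359, 444 and 457 CPM in X-high and 58.1, 51.3 and 60.5 CPM in X-low members. Prdm9, the histone methyltransferase that places double-strand breaks, stood at 104, 112 and 106 CPM in X-high members and at 1.76, 4.88 and 1.36 CPM in X-low members. Stra8, one of the excluded genes, was at 11.6, 29.9 and 26.1 CPM in X-high members and at most at 0.881 CPM in X-low members.

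The 9 X-linked parent genes of autosomal retrocopies summed to 421, 428 and 423 CPM in X-high members of WT, KO and KI and to 29.9, 22.8 and 24.5 CPM in X-low members, an order that the split by X-linked share builds in. Their 8 autosomal copies, which the split did not use, summed to 738, 783 and 701 CPM in X-high members and to 1160, 1482 and 1382 CPM in X-low members. Rpl10l, the copy of the ribosomal protein gene Rpl10, stood at 30.9, 35.9 and 39.2 CPM in X-high and 122, 151 and 137 CPM in X-low members. Pdha2, the testis form of a pyruvate dehydrogenase subunit, stood at 104, 106 and 118 CPM in X-high and 242, 304 and 286 CPM in X-low members. Both were higher in X-low members in all 3 libraries.

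Synaptonemal complex genes gave a higher sum in members than in either gate. Summed over Sycp1, Sycp2, Syce1, Syce2, Syce3, Tex12 and 4930447C04Rik (Six6os1), they gave 5367 CPM in WT members (5246 to 5490), 5340 in KO (5231 to 5450) and 5506 in KI (5404 to 5609). The same sum was 1715, 2503 and 2361 CPM in the spermatogonia gate and 1557, 1646 and 1790 CPM in the pachytene gate. Sycp1, the transverse filament of the complex, stood at 2379, 2136 and 2377 CPM in members, against 769 to 856 CPM in the spermatogonia gate and 248 to 307 CPM in the pachytene gate. Tex12, a central element protein, stood at 398, 377 and 388 CPM in members, and Syce2, its partner, at 176, 250 and 192 CPM. Of the 7 genes, 5 were higher in members than in both gates in all 3 libraries. The share over all 4467 genes with a mean of at least 50 CPM was 26.2%. Members were chosen, and the pachytene gate capped, on Sycp3, Hormad1 and Tex101, and the spermatogonia gate was set on genes the rule excluded. Comparisons with these gates, here and below, are therefore descriptions and no test. Syce2 was higher in the spermatogonia gate than in members in all 3 libraries, and Syce1 was higher in the pachytene gate.

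The promoters of 3 of these genes and of Rad51ap2 are shown as examples of promoters that hold more than 1 of 4 motifs linked to meiotic transcription: CACGTG (E-box), GCGGGAA (E2F), CNCCTCAG (reported for STRA8 and MEIOSIN) and CNGTTA (the MYB core, the motif of A-MYB, a factor of pachytene cells). Each line gives the 250 bases before the RefSeq start of the gene on GRCm38.p6, 5′ to 3′ on its coding strand, with matches on either strand in capitals. The promoter of 4930447C04Rik, not shown, also held CACGTG and CNGTTA. In the second promoter the CNCCTCAG match (reverse strand) and the GCGGGAA match overlap.
Sycp1 (chr3:102936101-102936350, minus strand): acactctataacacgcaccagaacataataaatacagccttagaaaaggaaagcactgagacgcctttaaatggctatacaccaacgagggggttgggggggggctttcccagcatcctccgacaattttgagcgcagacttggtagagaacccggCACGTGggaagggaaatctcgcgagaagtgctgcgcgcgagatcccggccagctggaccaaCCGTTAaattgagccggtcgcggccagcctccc
Syce2, the downstream of its 2 RefSeq starts (chr8:84872008-84872257, plus strand): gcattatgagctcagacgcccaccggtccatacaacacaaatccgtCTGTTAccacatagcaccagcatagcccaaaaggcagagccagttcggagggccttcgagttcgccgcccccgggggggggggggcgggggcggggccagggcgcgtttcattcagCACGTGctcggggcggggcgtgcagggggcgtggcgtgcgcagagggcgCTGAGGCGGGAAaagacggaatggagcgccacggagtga
Tex12 (chr9:50561269-50561518, minus strand): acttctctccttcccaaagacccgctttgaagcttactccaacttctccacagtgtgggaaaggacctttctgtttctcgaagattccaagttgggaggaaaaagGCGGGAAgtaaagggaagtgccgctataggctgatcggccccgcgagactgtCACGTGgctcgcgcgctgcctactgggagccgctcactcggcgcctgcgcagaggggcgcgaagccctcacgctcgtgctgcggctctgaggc
Rad51ap2 (chr12:11455805-11456054, plus strand): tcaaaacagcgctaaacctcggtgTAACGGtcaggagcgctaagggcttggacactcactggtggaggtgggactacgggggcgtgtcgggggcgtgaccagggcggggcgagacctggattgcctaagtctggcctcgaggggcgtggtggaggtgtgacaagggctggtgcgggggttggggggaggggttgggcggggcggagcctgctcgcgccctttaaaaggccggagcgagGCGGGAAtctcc

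Counted over 250 bases before to 50 after the start, CACGTG was present in the promoters of 4 of the 7 synaptonemal complex genes, CNCCTCAG in 4, CNGTTA in 6 and GCGGGAA in 2. The shares of all 27025 RefSeq genes with a promoter were 8.09%, 9.12%, 25.9% and 5.29%, and those of the 3547 matched genes among the 4467 were 13.0%, 12.2%, 24.4% and 12.1%. GCGGGAA was present in 6 of 12 matched genes of strand invasion and single-strand DNA binding and in 0 of 11 matched pachytene genes, of which 6 held CNGTTA. These are counts of letters in a window, not of bound sites.

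Genes of strand invasion and single-strand DNA binding were above both gates in 6 of 11 cases, and RNA regulators of meiotic entry in 7 of 8, to be read against the 26.2% of all 4467 genes. Break formation genes were so in 1 of 3 cases and crossover genes in 5 of 10. As sums, both of these lists were lower in members than in the spermatogonia gate of every library. Break formation genes summed to 855, 949 and 1008 CPM in members and to 922, 1219 and 1202 CPM in that gate. Crossover genes summed to 1267, 1453 and 1560 CPM in members and to 1538, 1987 and 2033 CPM there. Meiob, a single-strand DNA-binding protein of meiosis, stood at 339, 262 and 307 CPM for WT, KO and KI, and at 25.2 CPM or less in the spermatogonia gate and 19.3 CPM or less in the pachytene gate. Rad51ap2 stood at 193, 189 and 180 CPM in members and at 0, 0.597 and 0.596 CPM in the pachytene gate. Mcmdc2, needed for the homologous strand to be engaged, stood at 90.4, 71.6 and 75.2 CPM in members and at 17.1 CPM or less in both gates. Ddx4, the germ cell RNA helicase VASA, stood at 833, 708 and 835 CPM and Meioc, a partner of YTHDC2 in meiotic entry, at 391, 388 and 434 CPM, against at most 441 and 321 CPM in the gates. Meiob, Rad51ap2 and Mcmdc2 are among the 15 genes chosen for the highest smallest difference from both gates, so that difference is a description, and their RNA was uneven over the members. Rad51ap2 stood at 379, 291 and 328 CPM in X-high and 151, 147 and 126 CPM in X-low members, and at 26.6, 35.9 and 20.1 CPM in the tertile of members highest in the pachytene list. Mcmdc2 ran the other way, at 54.1, 49.8 and 57.8 CPM in X-high and 98.7, 80.6 and 81.6 CPM in X-low members. The 15 genes also held Gml and Gml2, neighbouring genes of GPI-anchored proteins (521, 456 and 406 CPM, and 354, 282 and 297 CPM), the RNA exonuclease gene Rexo5 (409, 367 and 402 CPM), and Gnas, the stimulatory G protein subunit (235, 179 and 194 CPM). Reads of near-identical family members such as Gml and Gml2 may be split between them.

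**Figure D2:**
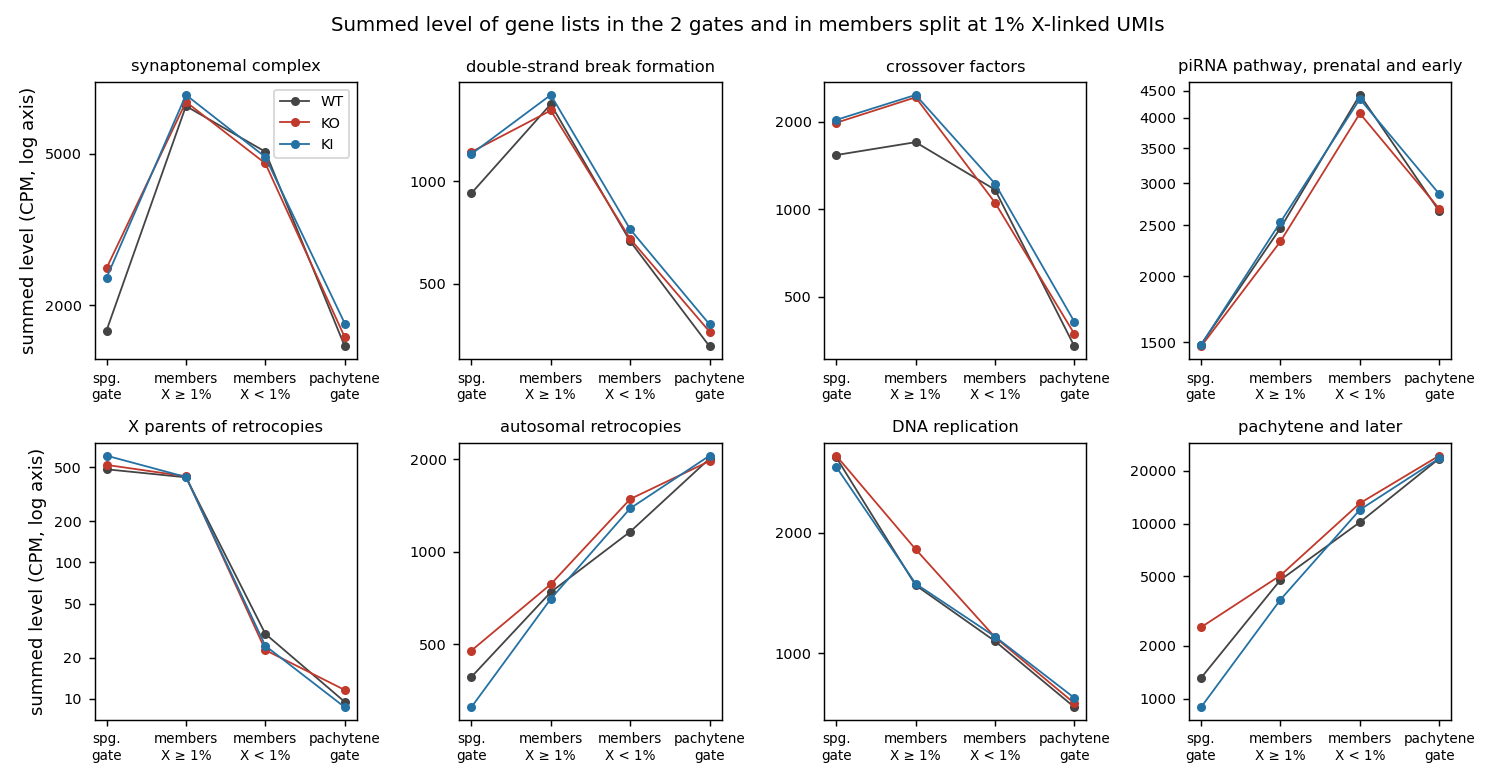
Summed level of 8 gene lists (CPM, log axes) in the spermatogonia gate, X-high members, X-low members and the pachytene gate, with 1 line per library. The synaptonemal complex list is highest in X-high members at 6682 to 7150 CPM, the piRNA list in X-low members at 4075 to 4418 CPM, and the DNA replication list is highest in the spermatogonia gate.

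Summed levels of the lists of meiotic breaks and crossovers differed between the 2 ranges. The 9 genes of double-strand break formation summed to 1684, 1613 and 1793 CPM in X-high members of WT, KO and KI and to 666, 677 and 722 CPM in X-low members, with Ankrd31, which directs breaks to the region shared by X and Y, at 715, 677 and 774 CPM in X-high members. The crossover list summed to 1703, 2432 and 2479 CPM in X-high members and to 1168, 1054 and 1225 CPM in X-low members, and it holds the X-linked gene Tex11, whose order the split by X-linked share builds in. Cntd1, which acts late in crossover designation, ran the other way, at 100, 95.6 and 106 CPM in X-high and 344, 290 and 384 CPM in X-low members. The piRNA genes of prenatal and early germ cells summed to 2468, 2328 and 2533 CPM in X-high and to 4418, 4075 and 4340 CPM in X-low members. Among them Mov10l1, the helicase that feeds precursors into piRNA production, stood at 943, 749 and 813 CPM over all members and at 97.3 to 117 CPM in the pachytene gate. Hspa2, the chaperone of the synaptonemal complex, stood at 444, 432 and 459 CPM in X-high and at 1474, 1728 and 1712 CPM in X-low members. These orders were the same in the 3 libraries.

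The knocked-out gene was checked first in the comparison of genotypes. Ddx25 (ENSMUSG00000032101, chromosome 9, 35536647 to 35558528 on GRCm38, minus strand) had 146 UMIs in WT members, 1 in KO and 108 in KI. This gave 105 CPM in WT (88.4 to 123), 0.578 CPM in KO (0.0146 to 3.22) and 53.8 CPM in KI (44.1 to 65.0), with a log2 difference between KI and WT of -0.95 (-1.33 to -0.59). In the KI the values count only reads that were assigned to the mouse gene. Ddx25 stood at 65.7 CPM in X-high and 114 CPM in X-low WT members, against 30.5 CPM in the WT spermatogonia gate, 215 CPM in the WT pachytene gate and 160 CPM in WT barcodes of more than 200 and up to 500 UMIs, taken here as mostly free RNA. With every protamine and transition protein UMI of members counted as free RNA, free RNA would be 2.90% (WT), 5.47% (KO) and 3.42% (KI) of member UMIs by the profile of these barcodes, and 1.38%, 0.722% and 0.699% by that of barcodes of 10 to 100 UMIs.

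Over the 4467 genes with a mean of at least 50 CPM, 144 (3.22%) were at least 1.5-fold higher and 78 (1.75%) at least 1.5-fold lower in KO members than in WT members. In KI members 59 (1.32%) were higher and 39 (0.873%) lower. In X-high members alone, with fewer UMIs, 412 and 350 of 4635 genes passed in KO and 314 and 422 in KI. The median over these genes was -0.05 in KO and -0.02 in KI, and from the 5th to the 95th percentile of genes the log2 difference spanned -0.46 to 0.49 in KO and -0.38 to 0.37 in KI. Both mutants passed 1.5-fold upwards for 30 genes (0.672%) and downwards for 12 (0.269%). Both comparisons used the same WT library, so a value peculiar to that library moves both in 1 direction. Ddx25 and Rpl29 lay far outside the other genes.

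**Figure D3:**
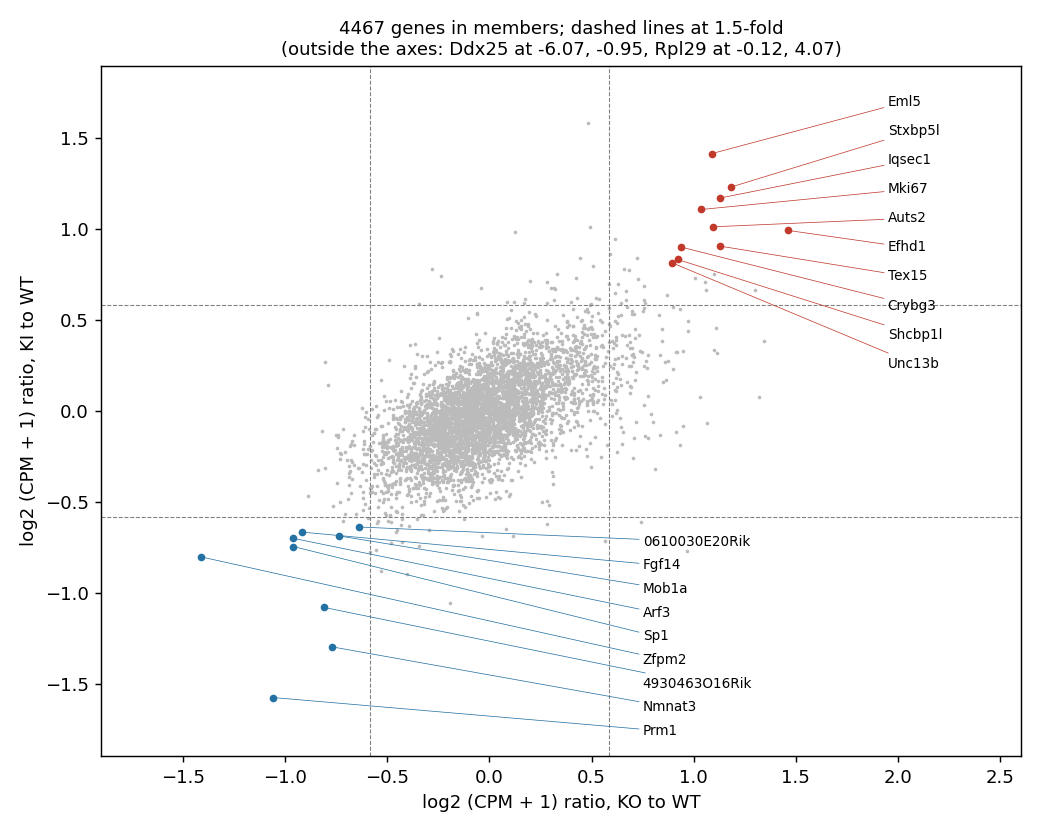
Each point is 1 of 4467 genes in members, with the log2 ratio of CPM + 1 of KO to WT on the horizontal and of KI to WT on the vertical axis; dashed lines mark 1.5-fold, and Ddx25 and Rpl29 lie outside the axes at the values in the title. The 10 genes highest in both mutants are red and the lowest, without Ddx25, blue, and as both axes share the WT library the tilt of the cloud is partly built in.

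Tex15 was among the 10 genes highest in both mutants, and Brca2, Tex11 and Terf1, outside those 10, also passed 1.5-fold in both. Of the genes with at least 50 CPM in the lists of break formation, strand invasion and crossover, 0 of 3, 1 of 11 (Brca2) and 2 of 10 (Tex11 and Tex15) were higher in both mutants, and 1 of 11 in the strand invasion list (Rpa2) was lower in both, against 0.672% of all genes higher and 0.269% lower in both. Tex15, a germ cell protein needed for loading recombinases on broken ends and for transposon silencing, stood at 150 CPM in WT (130 to 172), 329 in KO (302 to 357) and 282 in KI (259 to 306), a log2 difference of 1.13 in KO and 0.91 in KI. Brca2, a gene of homologous recombination, stood at 148, 232 and 224 CPM (0.65 in KO and 0.60 in KI). The X-linked crossover gene Tex11 stood at 35.1, 54.3 and 68.8 CPM (0.61 and 0.95), and Terf1, a telomere-binding protein, at 66.0, 102 and 104 CPM (0.62 and 0.65). The 2 mutant levels of each of these genes were above the WT interval. In X-low KO members, however, the Tex11 difference was -0.25. Besides Tex15, the 10 highest included Mki67, the proliferation antigen that coats mitotic chromosomes (45.9, 95.3 and 100 CPM), Auts2, a transcriptional regulator (83.9, 180 and 170 CPM), and the Arf exchange factor gene Iqsec1 (28.0, 62.4 and 64.3 CPM). Eml5, which encodes a microtubule-associated protein, reached 38.0, 82.0 and 103 CPM, and Unc13b and Stxbp5l, genes of vesicle release, reached 76.0, 142 and 135 CPM and 28.7, 66.4 and 68.8 CPM.

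Of the 30 genes higher in both mutants, 22 were higher in X-high than in X-low members of every library, as were 35% of all 4467 genes, and of the 12 lower genes 2 were. The 30 include the X-linked genes Tex11, Taf7l and Scml2, for which the split by X-linked share builds that order in. The 7 described here (Tex15, Mki67, Auts2, Iqsec1, Eml5, Unc13b and Stxbp5l) are those of the 10 highest with that order, so it is no count of support. They were also higher in the spermatogonia gate than in members of the same library, as were 26.9% of all genes in the 3 libraries, with Auts2 at 2893, 2027 and 2411 CPM there and Tex15 at 885, 1186 and 1181 CPM. X-high members gave 18.6% of WT, 29.0% of KO and 26.7% of KI member UMIs. Tex15 stood at 587, 1012 and 966 CPM in X-high members of WT, KO and KI and at 50.2, 49.6 and 32.6 CPM in X-low members. In X-high members alone its log2 difference reached 0.78 (0.52 to 1.06) for KO and 0.72 (0.46 to 0.99) for KI, and in X-low members -0.02 in KO (-0.56 to 0.53) and -0.61 in KI (-1.21 to -0.04). Mki67 stood at 100, 205 and 216 CPM in X-high members (1.02 in KO and 1.10 in KI) and at 33.5, 50.4 and 57.8 CPM in X-low members (0.58 and 0.77). Unc13b stood at 174, 378 and 330 CPM in X-high members and at 53.7, 45.6 and 63.2 CPM in X-low members. X-low members, in which these genes were lower, gave a larger share of member UMIs in WT than in KO or KI. Each of the 7 also had a log2 difference above 0 in both mutants within the X-high range. They were chosen on sums that hold these same X-high members, so those signs are no independent support. In X-low KO members 5 of the 7 were below 0, with Stxbp5l at -2.18, Unc13b at -0.23, Iqsec1 at -0.18 and Eml5 and Tex15 at -0.02, and in X-low KI members only Tex15 was. Eml5 and Tex15 were thus near 0 in X-low KO members, and the Tex15 interval there includes 0. The other values are given here without UMI counts, and a ratio at few UMIs can move far with few molecules. Of the 30 genes higher in both mutants, 11 passed 1.5-fold in both within X-high members, 9 within X-low members and 0 within both ranges. Of all 4467 genes, 3.9% passed upwards in both mutants within X-high members, 0.784% within X-low members and 0 genes within both, so that count says nothing particular about the 30. X-high members also had the higher mitochondrial share, at 6.69% against 4.13% in KI. With a mitochondrial limit of 5%, which left 40 KI members, the KI differences of Auts2, Tex15 and Tex11 turned to -1.05, -0.41 and -0.46. How far the mix of cells accounts for these differences was not tested.

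**Figure D4:**
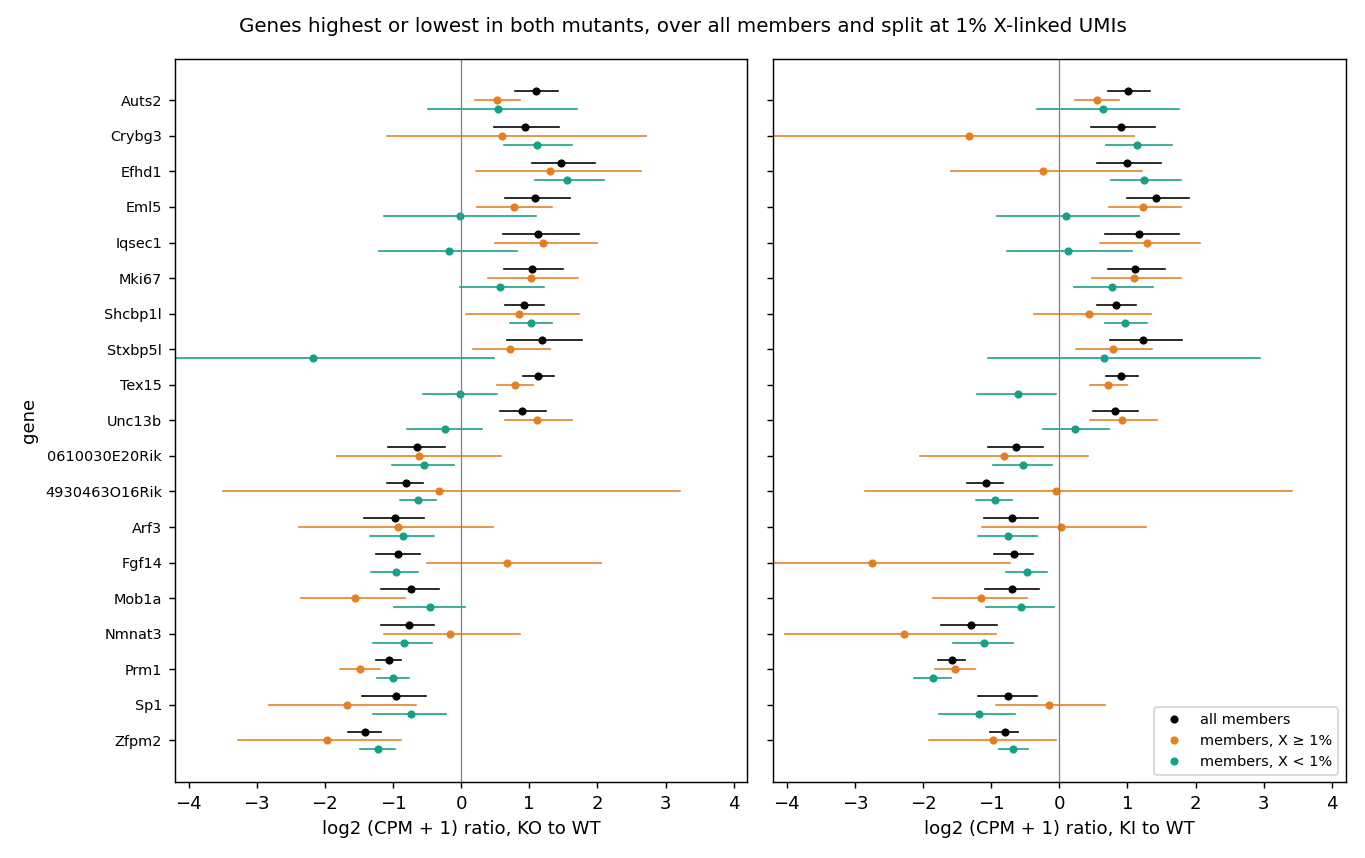
Log2 ratio of CPM + 1 to WT for KO (left) and KI (right), with 95% counting intervals, for the genes highest or lowest in both mutants other than Ddx25, over all members (black), X-high members (orange) and X-low members (green). Tex15, Unc13b and Iqsec1 keep a positive ratio in X-high and not in X-low KO members, and Zfpm2 and Prm1 are below 0 in every column.

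The other 3 genes of the 10 highest had the opposite place in the sequence. Efhd1, a mitochondrial calcium-binding protein, stood at 37.3, 105 and 75.2 CPM in members of WT, KO and KI and at 469, 494 and 512 CPM in the pachytene gate. Shcbp1l, a spindle protein of male meiosis, stood at 103, 196 and 185 CPM, and at 523, 611 and 670 CPM in the pachytene gate. Crybg3 stood at 38.7, 75.1 and 73.3 CPM, and at 297 to 359 CPM in the pachytene gate. In X-low members the 3 genes reached log2 differences of 1.55, 1.02 and 1.11 in KO and of 1.24, 0.97 and 1.13 in KI. In X-high KI members Efhd1 and Crybg3 were at -0.23 and -1.32. These values are given without UMI counts and may rest on few molecules. The KI difference of Efhd1 was also below 0, at -0.253, with members thinned to 2000 UMIs. That of Crybg3 was -0.357 without the members highest in the pachytene list. The pachytene list as a whole was 0.36 higher in KO and 0.24 higher in KI in X-low members, at 10183, 13077 and 11999 CPM. In X-high members it was 0.09 higher in KO (-0.01 to 0.19) and at -0.37 in KI (-0.48 to -0.27), at levels of 4766, 5059 and 3676 CPM.

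Among the genes lowest in both mutants, Zfpm2, a cofactor of GATA transcription factors, had the largest difference from WT in KO after Ddx25 itself. It stood at 312 CPM in WT (283 to 343), 117 in KO (101 to 134) and 178 in KI (160 to 198), a log2 difference of -1.41 (-1.67 to -1.17) in KO and -0.80 (-1.01 to -0.60) in KI. It stood at 365, 156 and 228 CPM in X-low and 81.1, 19.9 and 41.0 CPM in X-high members, and of the 12 genes lower in both mutants 4 passed 1.5-fold in both mutants within X-high members, 7 within X-low members and 2 (Zfpm2 and Prm1) within both ranges. Over all 4467 genes these shares were 2.87%, 0.649% and 0.0448%, and the last was made up of the same 2 genes. Nmnat3, a mitochondrial enzyme of NAD synthesis encoded on chromosome 9 like Ddx25, stood at 98.3, 57.2 and 39.4 CPM, and 4930463O16Rik at 209, 118 and 98.2 CPM. Rpa2, a subunit of the main single-strand DNA-binding complex, stood at 90.4, 59.5 and 59.8 CPM (-0.59 in both mutants), and fell short of 1.5-fold, at -0.56 in KO and -0.58 in KI, once the profile of barcodes of more than 200 and up to 500 UMIs was subtracted. Fgf14, Arf3, Sp1, Mob1a and 0610030E20Rik lay between -0.64 and -0.96 in KO and between -0.64 and -0.75 in KI, but Fgf14 was at 0.67 in X-high KO members and Arf3 at 0.02 in X-high KI members, and Sp1 at 0.58 in KI with members thinned to 2000 UMIs. Prm1, one of the genes the rule capped, stood at 476, 228 and 159 CPM. In barcodes of more than 200 and up to 500 UMIs the protamine and transition protein genes gave 4.11% (WT), 1.38% (KO) and 1.77% (KI) of UMIs. Subtracting the profile of these barcodes, scaled on those same genes, took Prm1 to a difference of 0 by construction, so the part of free RNA in the Prm1 difference was not tested by it. After this subtraction 29 of the 30 higher genes still passed 1.5-fold in both mutants, all but Nabp1, and 10 of the 12 lower genes, all but Rpa2 and Prm1.

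Over all members, none of the 15 gene lists of germ cell processes passed 1.5-fold as a sum in either mutant. Under some of the alternative settings given at the end, 1 list did. The synaptonemal complex list differed by -0.01 (KO, -0.05 to 0.04) and 0.04 (KI, -0.01 to 0.08), and 0 of 7 genes passed 1.5-fold either way. Of all genes, 3.22% (KO) and 1.32% (KI) passed it upwards and 1.75% (KO) and 0.873% (KI) downwards. The double-strand break list differed by 0.15 in KO and 0.24 in KI over all members, but by -0.06 (KO, -0.23 to 0.11) and 0.09 (KI, -0.07 to 0.26) in X-high and by 0.02 (KO, -0.12 to 0.17) and 0.12 (KI, -0.02 to 0.25) in X-low members. The crossover list differed by 0.20 in KO and 0.30 in KI, with Tex15 and Tex11 the 2 of 10 genes past 1.5-fold in each mutant. The list of chromosome axis and meiotic cohesin differed by 0.28 in KO and 0.22 in KI. Of its 5 genes with at least 50 CPM, the cohesin subunit genes Smc1b (493, 782 and 657 CPM) and Smc3 (121, 189 and 145 CPM) passed 1.5-fold in KO. In X-high members this list and the crossover list were 0.59 and 0.51 higher in KO and 0.33 and 0.54 higher in KI, and in X-low members they lay between -0.15 and 0.10. The 0.59 of the axis and cohesin list in X-high KO members is past 1.5-fold. The piRNA list was 0.18 lower in KO (-0.24 to -0.13) and 0.07 lower in KI (-0.12 to -0.02) over all members. In X-high members it was at -0.08 in KO (-0.22 to 0.06) and 0.04 in KI (-0.10 to 0.18). In X-low members it was at -0.12 in KO (-0.17 to -0.06) and -0.03 in KI (-0.08 to 0.03). Its member Piwil2 stood at 656, 463 and 573 CPM over all members. The checkpoint and apoptosis list differed by -0.05 and 0.04, with the checkpoint kinase gene Atr at 587, 600 and 661 CPM. In X-high members this list was at 0.11 in KO (-0.05 to 0.27) and 0.22 in KI (0.06 to 0.38). In X-low members it was at -0.15 in KO (-0.25 to -0.06) and -0.05 in KI (-0.14 to 0.04). The 5 translation genes that the study singled out (Eif1, Eif2s2, Rps26 and Rps29 among them) were picked on these same libraries. They are therefore no independent evidence. The study reported them as lower in mutant round spermatids, a later cell type, and also measured isolated round spermatids by qRT-PCR. In members the 5 genes differed by -0.01 and -0.07 as a sum, with Rps29 at 1658, 1541 and 1442 CPM. In X-high members their sum was at -0.22 in KO (-0.32 to -0.12) and -0.23 in KI (-0.33 to -0.13), and in X-low members at 0.04 and -0.04.

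Apart from Ddx25, KI members differed most from KO members at Rpl29, a ribosomal protein gene on chromosome 9 (106429454 to 106431568), which stood at 40.2, 37.0 and 691 CPM for WT, KO and KI. The same difference was present in the spermatogonia gate (36.6, 25.2 and 775 CPM) and the pachytene gate (54.8, 49.4 and 793 CPM). The cause of the Rpl29 difference was not tested, and genotype and library cannot be told apart for it. Of the 5 genes highest in KI against KO, 4 (Rpl29, Ddx25, 4930568E12Rik and Nek11) lie on chromosome 9, the chromosome of the targeted gene. Of all genes past 1.5-fold either way between KI and KO, 13 of 98 (13.3%) lay there, against 272 of 4466 (6.09%) of the genes measured. For KI against WT the count was 9 of 98, and for KO against WT 15 of 222. Slc9c1, the sperm sodium-proton exchanger, was the fifth gene, at 31.6, 44.5 and 96.7 CPM. The 5 genes lowest in KI against KO (Rabgef1, Gsg1, Irgc1, Prm3 and 1700013G24Rik) stood at 79.1 to 101 CPM in KO and at 29.4 to 42.4 CPM in KI.

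Lists of other cell types moved with the libraries. The round spermatid list summed to 118, 326 and 146 CPM (WT, KO, KI). Of its KO counts, 54.7% came from the 10 KO members with at least 0.1% of UMIs from it, against 2 such WT and 1 such KI members. The elongating spermatid list, which holds genes the rule capped, summed to 1473, 984 and 730 CPM, above the break and crossover lists in WT, and 75 of 104 WT, 60 of 130 KO and 21 of 83 KI members had at least 0.1% of UMIs from it. The same list gave 45777, 16177 and 20490 CPM in the barcodes taken as mostly free RNA. With that profile subtracted the list differed by -0.36 in KO and -0.88 in KI, against -0.58 and -1.01 without. The subtraction was scaled on Prm1, Prm2, Tnp1 and Tnp2, which this list holds, so their part of that change is built in. The part of free RNA in the list difference was not tested by it. The Sertoli list summed to 238, 212 and 268 CPM, and 11 WT, 10 KO and 7 KI members had at least 0.1% of UMIs from it, with Cst9 at 63.1, 45.6 and 42.9 CPM. The Sertoli list summed to 42.7, 68.5 and 27.7 CPM in the spermatogonia gate and to 24.0, 42.1 and 16.4 CPM in the pachytene gate. This list of another cell type was thus also higher in members than in both gates. The Leydig, macrophage, stromal and red blood cell lists summed to at most 9.32 CPM in any library, with Cyp17a1, Adgre1 and Cd163 at 0. No doublet caller was run, and the part of 2-cell barcodes in these values was not tested. Of the kept barcodes, 5 were shared by WT and KO, 1 by WT and KI and 4 by KO and KI, against 2.41, 0.894 and 0.697 expected if barcodes were drawn independently from those listed. 1 KI member's barcode held more UMIs in the KO library (57297) than in its own.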

How the data were processed

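Single-cell libraries of dissociated testes, 1 each from WT, KO and KI mice, were read by 10x Genomics 3′ sequencing. The authors deposited raw UMI counts per gene and barcode, with all barcodes and no cell calls; the submitters' processing notes name Cell Ranger 2.1.1 and mm10, and the file headers another release of the program. Library totals were 82973909 (WT), 91388296 (KO) and 73150373 (KI) UMIs. Barcodes were selected by the rule above, counts were summed over members, and sums were scaled to CPM. Exact Poisson and Clopper-Pearson 95% intervals cover counting error only. With 1 library per genotype no p-value was computed, and a gene is past a difference at 1.5-fold of CPM + 1 with a mean of at least 50 CPM over the 3 libraries. The ratio and its interval were tested on simulated Poisson counts only, which hold no variation among cells, so coverage for the real sums was not tested. Python 3.11.15, numpy 2.4.6, scipy 1.17.1 and pandas 2.3.3 were used, and edgeR 4.0.16 in R 4.3.3 for TMM factors, an alternative scaling only. No doublet caller was run.

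The members and lists were chosen with earlier results of these data known. Genes named were those of the rule, the 10 most abundant, the 15 with the highest smallest difference from both gates, the 10 highest and 10 lowest in both mutants, the 5 highest and lowest in KI against KO, and for each list the 4 most abundant genes and those past 1.5-fold in both mutants. Tex12, Syce1, Syce2, Dmc1, Prdm9 and Piwil1 were named after their values were seen. Positions and promoters came from the reference annotation of GRCm38 and RefSeq GRCm38.p6, and motifs were searched on both strands.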

Additional observations from a re-analysis of the deposited data

Results flagged for a closer look

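A signal outside the kept barcodes was seen for the knocked-out gene. In the KO library, barcodes of 10 to 100 UMIs held 23 Ddx25 UMIs of 308992, which is 74.4 CPM (47.2 to 112), against 1 UMI (0.578 CPM) in the KO members. Of the 9737 KO barcodes of that size, 3521 (36.2%) were barcodes kept in the WT library. Barcodes kept in WT carried 0.418% of their own UMI number in the KO library. The cause was not tested.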

How the results depend on the processing

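Each genotype had 1 library, so depth and the single library limit every comparison, and leaving out a replicate was not possible. No paired analysis was possible because each genotype had 1 library. Alternatives were the limits of the rule, filters, scaling, cell weights and thinning. Those by X-linked share, by Sertoli or round spermatid list, by shared barcode and with the profile of nearly empty barcodes subtracted were chosen after seeing the data. For each value below the cause was not tested. TMM factors were 1.01, 1.01 and 0.985. Of 153 alternative values of the main results, 95 stayed within their limits and 58 moved.

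Members were 1.64%, 2.78% and 3.47% of kept barcodes (WT, KO, KI) at a mitochondrial limit of 5%, 1.75%, 2.85% and 4.6% at a minimum of 0.4% for the 3 selecting genes, and 4.96% in KO with at least 4000 UMIs. Genes higher in KO (144) numbered 407 at a mean of at least 20 CPM, 5240 with no filter, 474 with members thinned to 2000 UMIs, 285 without the members highest in the pachytene list and 412 in X-high members. Genes lower in KO (78) numbered 233, 2662, 411, 292 and 350 in that order, 151 at the mitochondrial limit, 120 at the 0.4% minimum and 151 in X-low members. Genes higher in KI (59) numbered 187, 2327, 503, 171 and 314 in the same order, 130 at the mitochondrial limit and 147 with members weighted equally. Genes lower in KI (39) numbered 175, 3039, 537, 95 and 422, then 186 at the mitochondrial limit, 74 at the 0.4% minimum, 145 with equal weights and 73 in X-low members. In KO 1 list passed 1.5-fold in place of 0 at the 0.4% minimum, without the members highest in the pachytene list, without members past 0.1% of the Sertoli or round spermatid list, and in X-high members. In KI 1 list did so at the mitochondrial limit, at the 0.4% minimum and without the members highest in the pachytene list.

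The X-linked share (WT, KO, KI) was 0.416%, 0.53% and 0.393% as the median over members, 0.369%, 0.45% and 0.226% at the mitochondrial limit, 0.617%, 0.886% and 0.859% without members above the 95th percentile of UMIs, and 0.467%, 0.71% and 0.623% without members past 0.1% of the Sertoli or round spermatid list. It was 0.507% in WT and 0.711% in KO with at least 4000 UMIs, and 0.491% in WT at the 0.4% minimum. Among the log2 ratios of named genes under alternatives, 17 changed sign, 708 kept within their limits and 91 moved. The values that changed sign are given without UMI counts, and some may rest on few molecules. In X-low members KO was at -0.0198 for Eml5, -0.181 for Iqsec1, -2.18 for Stxbp5l, -0.25 for Tex11, -0.0162 for Tex15 and -0.233 for Unc13b, and KI at -0.606 for Tex15. In X-high members KI was at 0.0197 for Arf3, -1.32 for Crybg3 and -0.235 for Efhd1, and KO at 0.671 for Fgf14. At the mitochondrial limit KI was at -1.05 for Auts2, -0.463 for Tex11 and -0.411 for Tex15. Thinning put KI at -0.253 for Efhd1 and 0.579 for Sp1, and leaving out the members highest in the pachytene list put KI at -0.357 for Crybg3.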
